A study of Mus musculus with 18 samples.

Results

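Wee1, Inmt, Fibin, Ppp1r3c, Avpr1a, Bpifb1 and Tmem45a were followed in the RPE/choroid of mice, the pigmented layer behind the retina together with its vascular bed. These 7 of 18194 genes lie outside the core clock, and they were chosen by their difference in expression between day 7 and day 30 on the same arrays that are described here. Every probe set annotated to 1 of them alone was taken, which gave 11 of 45101 probe sets. Inmt, Fibin and Tmem45a had 1 probe set each and the other 4 genes had 2.

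Male C57BL6/J mice had received a single intravitreal injection of balanced salt solution (BSS, the vehicle and control), dexamethasone (Dex, 10 μg) or triamcinolone acetonide (TAA, 25 μg) in 1 μL, and both steroids were dissolved in BSS. Tissue was collected from different animals at day 7 (1 week) or day 30 (1 month), in the morning within 1 h, which gave 6 groups of 3 arrays with 1 animal per array. All animals were injected on the same day, so that the calendar day of collection, the time since the injection and the age of the animals cannot be told apart. The methods do not give the clock hour of collection or say that it was the same on both days. A difference in hour could not be told apart from these either. The labels give an age of 2 months and the methods 6 to 8 weeks, neither source names an engineered allele, and no uninjected animals are among the 18 arrays.

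The log2 values had been normalized by RMA and centred, probe set by probe set, on the median of all 18 arrays, and they therefore compare arrays without giving a level. When the arrays of the 2 days separate completely, this centring places one day above 0 and the other below it. Dissected RPE/choroid can carry other tissue, and rod photoreceptor genes (mean of 12 genes) ran from -1.61 to 3.68 over the arrays, with the highest values on BSS day 30 replicates 1 and 3 (3.68 and 3.61) against -0.54 on replicate 2. RPE markers, among them Rpe65 and Best1, ran only from -0.24 to 0.18 (mean of 12 genes), but whether they were strongly expressed cannot be read from centred values. In such bulk tissue, fewer cells of a type and less RNA per cell cannot be told apart.

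A circadian clock is a loop of transcription factors in which Bmal1 (encoded by Arntl) and its partners switch on their own repressors, and the same factors drive output genes such as Dbp. The retina, the RPE and the choroid keep such clocks, and rod outer segments are shed and taken up by the RPE in a daily rhythm. None of the 7 genes is part of this loop. They are named here for other roles: control of cell division (Wee1), methylation of small amines (Inmt), glycogen storage (Ppp1r3c) and vasopressin signaling (Avpr1a). Fibin and Bpifb1 encode secreted proteins and Tmem45a a membrane protein of epithelia. Such a role does not keep a gene from being clock output as well, and whether the clock drives any of them was not tested.

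Wee1, Inmt, Fibin and Bpifb1 were lower at day 30 than at day 7, and Ppp1r3c, Avpr1a and Tmem45a were higher. As a mean over the 3 treatments the log2 difference between the days ran from -0.64 (Wee1, SE 0.061) to -1.24 (Bpifb1, SE 0.19) among the genes that were lower, and from 0.73 (Tmem45a, SE 0.099) to 0.995 (Ppp1r3c, SE 0.20) among those that were higher, while the clock gene Arntl differed by 1.85 (SE 0.14). These differences chose the genes and are a description without a test. Where a gene had 2 probe sets, the one with the clearer mean day difference is given first and is called the leading probe set.

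**Figure D1:**
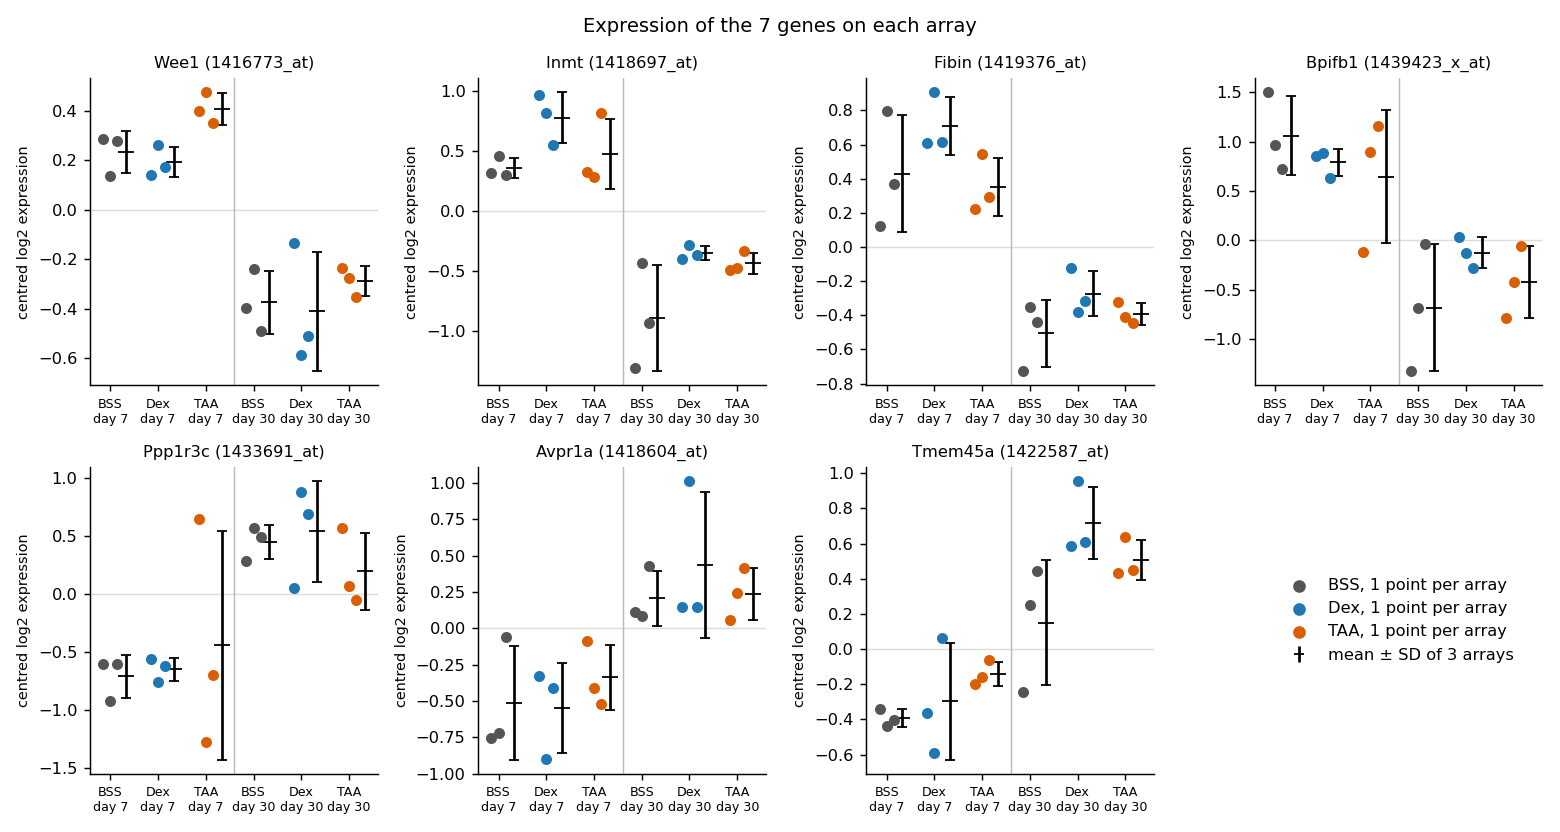
Centred log2 expression (y axis) of the leading probe set of each of the 7 genes on the 18 arrays, by treatment and day (x axis); points are single arrays, and bars are the mean ± SD of 3 arrays. The 9 day 7 arrays of Wee1, Inmt and Fibin all lie above their 9 day 30 arrays, those of Avpr1a all lie below, and single arrays of Ppp1r3c, Bpifb1 and Tmem45a cross over.

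Wee1 encodes the kinase that holds Cdk1 inactive and so delays entry into mitosis. At day 7 its leading probe set (1416773_at) measured 0.28, 0.14 and 0.28 after BSS, 0.14, 0.26 and 0.17 after Dex, and 0.40, 0.47 and 0.35 after TAA. At day 30 it measured -0.40, -0.24 and -0.49 after BSS, -0.14, -0.59 and -0.51 after Dex, and -0.24, -0.28 and -0.35 after TAA. No array of one day overlapped the other day, and the differences of -0.61, -0.60 and -0.70 (SE 0.11 each) made Wee1 the gene with the most even day difference over treatments. The other probe set (1416774_at) also separated the days on all arrays, with a smaller mean difference of -0.37 (SE 0.054) and with -0.58 after TAA against -0.28 after BSS and -0.24 after Dex (SE 0.094 each).

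Inmt encodes indolethylamine N-methyltransferase, which transfers methyl groups to tryptamine and related amines. Its probe set (1418697_at) measured 0.32, 0.45 and 0.30 after BSS, 0.97, 0.82 and 0.55 after Dex, and 0.33, 0.29 and 0.81 after TAA at day 7. The day 30 arrays gave -1.31, -0.43 and -0.94 after BSS, -0.40, -0.29 and -0.37 after Dex, and -0.49, -0.48 and -0.33 after TAA. The days did not overlap in any treatment, and the lowest values of all were on 2 of the 3 BSS arrays at day 30. The day difference was -1.25 after BSS, -1.13 after Dex and -0.91 after TAA (SE 0.18 each), or -1.10 as a mean (SE 0.11).

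Fibin encodes a small secreted protein named after the initiation of fin buds. It measured (1419376_at) 0.12, 0.80 and 0.37 after BSS, 0.61, 0.91 and 0.61 after Dex, and 0.22, 0.54 and 0.29 after TAA at day 7. The day 30 values were -0.73, -0.35 and -0.44 after BSS, -0.12, -0.38 and -0.31 after Dex, and -0.32, -0.41 and -0.45 after TAA. The arrays of the 2 days did not overlap, and the day 7 arrays after BSS were the most scattered (SD 0.34). The differences were -0.94, -0.98 and -0.75 after BSS, Dex and TAA (SE 0.15 each), and -0.89 as a mean (SE 0.089).

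Bpifb1 encodes a secreted protein of the family that binds bacterial lipids, best known from the airway epithelium. Its leading probe set (1439423_x_at) measured 1.498, 0.96 and 0.72 after BSS, 0.86, 0.88 and 0.63 after Dex, and -0.12, 0.90 and 1.16 after TAA at day 7. At day 30 it gave -1.32, -0.69 and -0.03 after BSS, 0.03, -0.13 and -0.28 after Dex, and -0.78, -0.42 and -0.06 after TAA. The days separated after BSS and Dex, while after TAA the first day 7 array lay below 1 of the day 30 arrays. The suffix of this probe set marks probes that can also match other sequences, but the other probe set (1423719_at) followed it closely (r = 0.97 over 18 arrays) and did not overlap between the days within any treatment. Its values reached -2.56 on BSS day 30 replicate 1, and its mean day difference was -1.57 (SE 0.30). For the leading probe set the difference was -1.74 after BSS, -0.91 after Dex and -1.07 after TAA (SE 0.33 each).

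Ppp1r3c encodes the subunit, also called protein targeting to glycogen, that brings protein phosphatase 1 to glycogen and so favors its synthesis. Its leading probe set (1433691_at) measured -0.60, -0.92 and -0.60 after BSS, -0.56, -0.76 and -0.62 after Dex, and 0.64, -1.28 and -0.69 after TAA at day 7. At day 30 it measured 0.29, 0.57 and 0.49 after BSS, 0.05, 0.88 and 0.69 after Dex, and 0.57, 0.07 and -0.05 after TAA. The days did not overlap after BSS and Dex. After TAA the first day 7 array was higher than all 3 day 30 arrays, and the group of 3 scattered far more (SD 0.99) than after BSS (SD 0.19) or Dex (SD 0.10). The day difference was 1.16 after BSS, 1.19 after Dex and 0.64 after TAA (SE 0.35 each). The value after TAA became 1.18 without TAA day 7 replicate 1 and 0.22 without TAA day 7 replicate 2. The other probe set of Ppp1r3c (1425631_at) did not follow the first (r = -0.012 over 18 arrays), and its mean day difference was -0.02 (SE 0.056), so that the day difference of this gene stands on 1 of its 2 probe sets.

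Avpr1a encodes the V1a receptor, through which vasopressin raises calcium in vessel muscle and other cells. Its leading probe set (1418604_at) measured -0.75, -0.72 and -0.06 after BSS, -0.33, -0.90 and -0.41 after Dex, and -0.09, -0.41 and -0.52 after TAA at day 7. The day 30 arrays measured 0.11, 0.08 and 0.43 after BSS, 0.15, 1.01 and 0.14 after Dex, and 0.06, 0.24 and 0.42 after TAA. All day 30 arrays lay above all day 7 arrays, with a narrow gap between BSS day 7 replicate 3 and TAA day 30 replicate 1. The differences were 0.72, 0.98 and 0.58 after BSS, Dex and TAA (SE 0.24 each). The other probe set (1418603_at) gave a mean difference of 0.82 (SE 0.19) against 0.76 (SE 0.14) for the leading one, but after BSS day 7 replicate 3, at 0.29, lay above 2 of the day 30 arrays (-0.01 and 0.19).

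Tmem45a encodes a protein that spans the membrane and is found in skin epithelium. It measured (1422587_at) -0.34, -0.44 and -0.40 after BSS, -0.37, -0.59 and 0.06 after Dex, and -0.20, -0.16 and -0.06 after TAA at day 7. The day 30 arrays measured -0.24, 0.25 and 0.44 after BSS, 0.59, 0.96 and 0.61 after Dex, and 0.43, 0.64 and 0.45 after TAA. Within each treatment the days did not overlap, but BSS day 30 replicate 1 lay below several day 7 arrays of the steroid groups. The difference was 0.54 after BSS, 1.02 after Dex and 0.65 after TAA (SE 0.17 each), smallest after BSS, where Inmt had its largest difference in size.

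Over the leading probe sets of the 7 genes, the 3 day 7 and the 3 day 30 arrays did not overlap for 7 genes after BSS (12.4% of all probe sets), for 7 after Dex (7.86% of all) and for 5 after TAA (12.2% of all), the exceptions being Ppp1r3c and Bpifb1. With all treatments together, the 9 arrays of each day did not overlap for 4 genes (0.164% of all), namely Wee1, Inmt, Fibin and Avpr1a. These counts follow from how the genes were chosen.

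**Figure D2:**
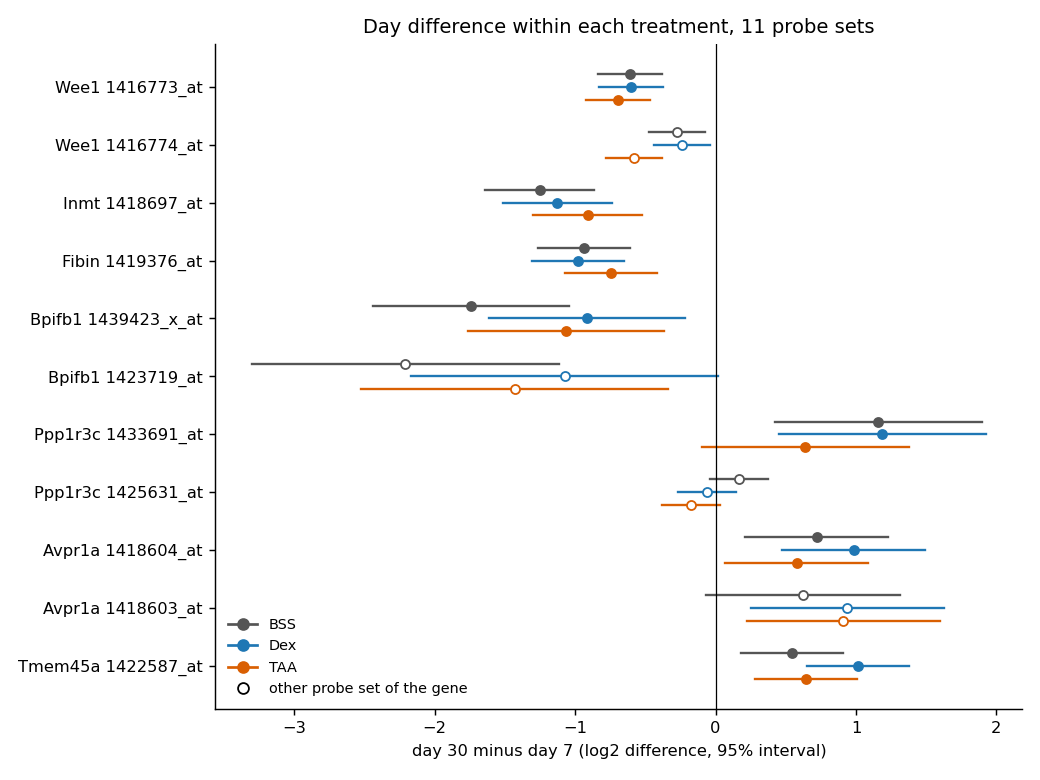
Day 30 minus day 7 (x axis, log2 difference with 95% interval from the pooled spread) for the 11 probe sets of the 7 genes after BSS, Dex and TAA; filled points are leading probe sets and open points the other probe set of a gene. The other probe set of Ppp1r3c has values on both sides of 0, while those of Wee1, Avpr1a and Bpifb1 lie on the side of the leading probe set. Genes and leading probe sets were chosen by the day difference, so that the intervals describe the spread and are no test.

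Promoter sequences were read for the genes with an entry in a table from RefSeq (GRCm38.p6), which holds 250 bases before to 50 after a gene start. It gave 7 windows for 6 of the genes, 2 of them for Bpifb1, and Wee1 had no entry. The windows were searched on both strands for clock and hormone response motifs, since clock genes differed between the same days. Only the window of Ppp1r3c held a match. It is shown on the strand of the gene, with the E-prime box (CACGTT, beginning at position -189 from the start) and the E-box (CACGTG, at -104) in capitals. Beside it stands the window of Fibin, whose nearest gene in pattern by Pearson's r over the 18 arrays was the clock repressor Nr1d1. The Fibin window holds none of the motifs.
Ppp1r3c, chr19:36736555-36736854, minus strand: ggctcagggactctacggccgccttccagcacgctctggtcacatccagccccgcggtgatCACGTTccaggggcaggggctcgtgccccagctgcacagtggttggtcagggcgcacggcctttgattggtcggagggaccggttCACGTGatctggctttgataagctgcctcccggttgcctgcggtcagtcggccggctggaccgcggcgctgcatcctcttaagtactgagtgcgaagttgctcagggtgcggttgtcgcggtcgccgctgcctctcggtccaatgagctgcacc
Fibin, chr2:110362944-110363243, minus strand: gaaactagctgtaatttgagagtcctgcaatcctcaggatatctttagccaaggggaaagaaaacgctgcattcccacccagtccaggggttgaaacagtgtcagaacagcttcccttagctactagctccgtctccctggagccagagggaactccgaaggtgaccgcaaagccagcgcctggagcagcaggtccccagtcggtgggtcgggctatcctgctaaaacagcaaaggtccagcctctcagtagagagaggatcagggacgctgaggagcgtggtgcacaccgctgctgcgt
The E-box, to which Bmal1 and its partners bind, was present in 7.15% of all 32851 promoter windows and the E-prime box in 4.68%. The other motifs searched were the D-box (TTATGTAA or TTACGTAA, in 1.06% of windows), the cAMP response element (TGACGTCA, 1.79%), the core of the RORE (TAGGTCA or TGGGTCA, 6.45%) and the glucocorticoid response element (0.475%). A match in these windows is a string of letters and no measured binding.

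Whether the steroids altered the 7 genes was tested with limma, which fits 1 mean per group over all 18 arrays and adjusts p-values over all probe sets. None of the leading probe sets differed at an adjusted p under 0.05 between Dex and BSS, TAA and BSS or TAA and Dex at either day, and the smallest adjusted p of the 7 genes over the 6 comparisons was 0.996. The same threshold was passed by 0% of all probe sets in 5 of these comparisons and by 0.00222% in TAA against BSS at day 7. At an unadjusted p under 0.05 in limma, the leading probe sets at day 7 gave 1 gene in Dex against BSS (Inmt; 2.23% of all probe sets), 0 in TAA against BSS (3.93% of all) and 1 in TAA against Dex (Fibin; 2.7% of all). At day 30 they gave 2 in Dex against BSS (Inmt and Tmem45a; 4.23% of all), 1 in TAA against BSS (Inmt; 2.63% of all) and 0 in TAA against Dex (1.91% of all). The methods' t-test at the thresholds of the study gave 0 of the 7 genes in each comparison, where it gave 0.195%, 0.317% and 0.14% of all probe sets at day 7 and 0.0288%, 0.0266% and 0.0266% at day 30, in the same order. After Benjamini-Hochberg adjustment it gave 0 of the 7 genes and 0% of all probe sets in each.

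Inmt stood higher after Dex than after BSS at both days. The difference was 0.42 at day 7 (95% interval 0.03 to 0.81, limma unadjusted p = 0.0357, adjusted p = 0.99997) and 0.54 at day 30 (0.15 to 0.93, unadjusted p = 0.00924, adjusted p = 0.999), and the 3 Dex arrays lay above the 3 BSS arrays on both days. After TAA it was 0.12 higher than after BSS at day 7 (-0.27 to 0.51) and 0.46 higher at day 30 (0.07 to 0.85). The day 30 differences leaned on BSS day 30 replicate 1, the array with the highest rod score: without it they were 0.33 for Dex and 0.25 for TAA, while without BSS day 30 replicate 2 the difference for TAA was 0.69.

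Tmem45a showed its widest spread between treatments at day 30, with means of 0.72 ± 0.21 after Dex, 0.51 ± 0.11 after TAA and 0.15 ± 0.35 after BSS (SD, n = 3). Dex exceeded BSS by 0.57 (0.20 to 0.93, limma unadjusted p = 0.00463, adjusted p = 0.999) and TAA exceeded it by 0.36 (-0.01 to 0.72). Without BSS day 30 replicate 1 these were 0.37 and 0.16. At day 7 the differences from BSS were 0.09 for Dex and 0.25 for TAA, both with intervals that held 0.

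Wee1 after TAA at day 7 was the highest group on both of its probe sets, and its 3 arrays lay above those of BSS and of Dex on each. For the leading probe set TAA exceeded BSS by 0.17 (-0.05 to 0.40) and Dex by 0.22 (-0.01 to 0.44). For the other probe set the differences were 0.25 (0.05 to 0.45) and 0.29 (0.09 to 0.49), again with limma adjusted p-values near 1 (0.996 and 0.99996). At day 30 the 3 treatments lay within 0.12 of each other on the leading probe set.

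Fibin at day 7 was lower after TAA than after Dex by -0.36 (-0.68 to -0.03, limma unadjusted p = 0.0356, adjusted p = 0.99996), without overlap of the arrays. Its differences from BSS ran from -0.08 to 0.28 over both steroids and days. For Ppp1r3c, Avpr1a and Bpifb1 every interval of a treatment difference held 0 on the leading probe set. The other probe set of Ppp1r3c was higher after TAA than after BSS at day 7 by 0.28 (0.08 to 0.49, limma unadjusted p = 0.0105, adjusted p = 0.996), without overlap of the arrays. The intervals of Ppp1r3c and Bpifb1 were the widest, and at day 30 that of Bpifb1 allowed a difference of Dex from BSS between -0.14 and 1.26.

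Counted over the leading probe sets, the 3 arrays of both groups did not overlap for 1 gene in Dex against BSS at day 7 (8.95% of all probe sets), for 2 in TAA against BSS at day 7 (10.8% of all; Wee1 and Tmem45a) and for 2 in TAA against Dex at day 7 (11.1% of all; Wee1 and Fibin). At day 30 they did not overlap for 2 genes in Dex against BSS (4.84% of all; Inmt and Tmem45a), for 0 in TAA against BSS (5.97% of all) and for 0 in TAA against Dex (4.9% of all). With 3 arrays against 3, an exact permutation test (two-sided) of a single gene cannot go below p = 0.1.

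**Figure D3:**
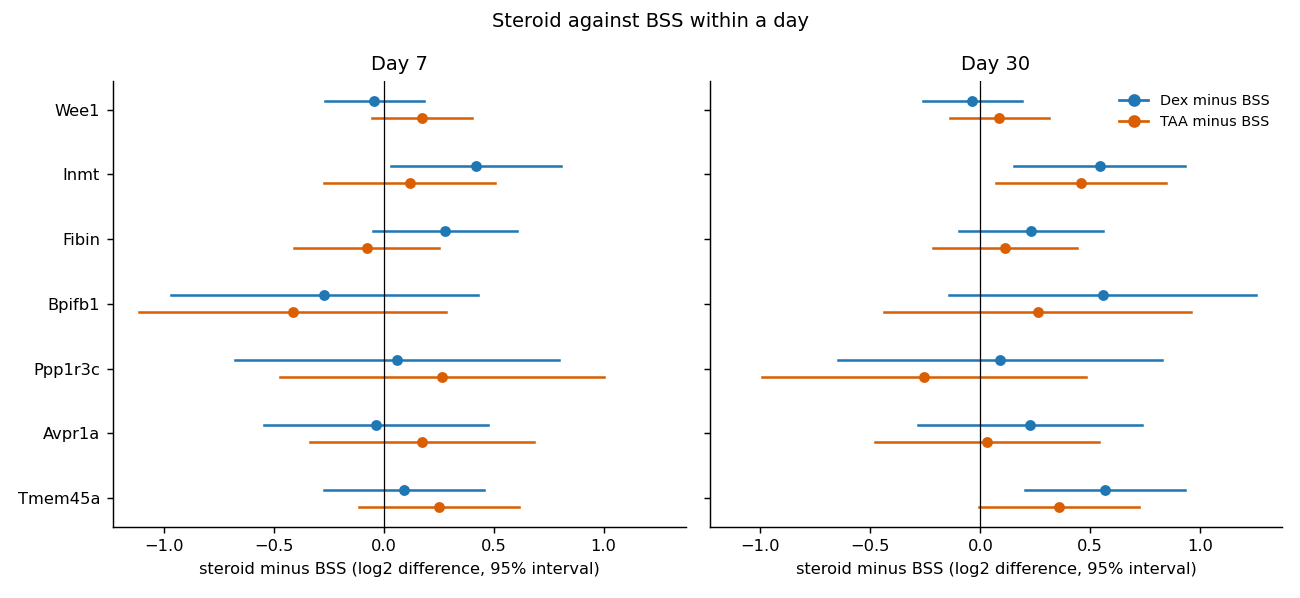
Steroid minus BSS at day 7 and at day 30 (x axes, log2 difference with 95% interval) for the leading probe set of each gene. Inmt after Dex at both days, Inmt after TAA at day 30 and Tmem45a after Dex at day 30 have intervals that leave out 0, and none of these differences passed the adjusted threshold.

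Whether the day difference itself depended on the treatment was tested as the difference between a steroid's day difference and that of BSS. For the leading probe sets 0 of 7 genes passed for Dex or for TAA (limma, smallest adjusted p 0.9997 and 0.994, 0% of all probe sets in each), and 0 had an unadjusted p under 0.05 (2.97% of all for Dex, 3.03% for TAA). In limma, the F-test of treatment by day gave 0 of 7 after adjustment (0% of all) and 0 of 7 at an unadjusted p under 0.05 (1.86% of all). A limma F-test of the steroid effects at both days together also gave 0 of 7 after adjustment (0% of all; adjusted p = 1 for each gene) and 2 genes at an unadjusted p under 0.05, Inmt (unadjusted p = 0.0211) and Tmem45a (unadjusted p = 0.037), where 1.73% of all probe sets did. The departures farthest from 0 were those of Bpifb1, whose negative day difference was smaller in size than after BSS by 0.82 after Dex (-0.16 to 1.81) and by 0.67 after TAA (-0.31 to 1.66). Without BSS day 30 replicate 1 they were 0.51 and 0.35, and without TAA day 7 replicate 1 that for TAA was 0.29. For Ppp1r3c after TAA the departure was -0.52 (-1.56 to 0.52), and it was 0.02, of the opposite sign, without TAA day 7 replicate 1 and -0.94 without TAA day 7 replicate 2. The positive day difference of Tmem45a was larger after Dex than after BSS by 0.47 (-0.04 to 0.99), or by 0.28 without BSS day 30 replicate 1. For Wee1 the departure was 0.01 (-0.31 to 0.33) after Dex and -0.09 (-0.41 to 0.23) after TAA, and leaving out 1 array gave -0.13 to 0.09 and -0.14 to -0.02. Beyond the leading probe sets, the other probe set of Wee1 (-0.31, -0.59 to -0.03) and that of Ppp1r3c (-0.34, -0.63 to -0.05) had intervals for TAA that left out 0, with an adjusted p of 0.994 in limma for both.

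The array TAA day 7 replicate 1 differed from the other 2 of its group most in Ppp1r3c and Bpifb1. In Wee1 (0.40 against 0.47 and 0.35) and Inmt (0.33 against 0.29 and 0.81) the array lay between them. In Fibin (0.22 against 0.54 and 0.29) and Tmem45a (-0.20 against -0.16 and -0.06) the array was the lowest of its group. In Avpr1a (-0.09 against -0.41 and -0.52) the array was the highest. It held the highest Ppp1r3c value (0.64) of all day 7 arrays and the lowest Bpifb1 value (-0.12) of them. On the same array the mean of 14 glucocorticoid response genes was 0.40, against 0.16 and 0.11 on replicates 2 and 3, and 10 of the 14 genes were highest there within the group. The mean of 12 fibroblast and stroma markers was -0.57 on it, against 0.03 and 0.01. The part of either in the values of Ppp1r3c and Bpifb1 was not tested.

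Genes from the same pathways or families were set beside the members by lists, with the mean of a gene's probe sets as its value and the members left out. In the mitotic entry list of Wee1 0 of 15 measured genes passed the test between the days in limma, in the glycogen list of Ppp1r3c 0 of 27, in the vasopressin and oxytocin list of Avpr1a 0 of 11, in the list of methyl transfer to small molecules (Inmt) 0 of 13, and among relatives of Bpifb1 and Tmem45a 0 of 11. Of all 18194 genes 0.104% passed as higher at day 30 and 0.324% as lower. At an unadjusted p under 0.05 the 5 lists gave 2, 5, 0, 1 and 2 genes, where 15.3% of all genes did. Their median log2 differences were -0.09, -0.0017, -0.01, -0.06 and -0.09, against -0.02 for all genes.

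Among single genes of these lists, Pkmyt1, which inhibits Cdk1 as Wee1 does, differed by -0.06 and Cdk1 itself by -0.15. The other glycogen targeting subunits Ppp1r3a, Ppp1r3b and Ppp1r3d differed by 0.02, -0.0023 and 0.02. The vasopressin receptors Avpr1b and Avpr2 differed by 0.09 and 0.05 and the oxytocin receptor Oxtr by -0.07. Nnmt, a methyltransferase for nicotinamide, differed by -0.23, Pnmt, which makes adrenaline, by -0.04, and Hnmt, which inactivates histamine, by -0.21. Lbp, which binds bacterial lipid in blood, differed by -0.28, the lipid transfer protein Pltp by 0.05 and Bpifa1, a secreted airway protein, by -0.09, and 0 of these passed the test. In the same lists Ccnb2, a cyclin partner of Cdk1, differed by -0.53 (SE 0.328, adjusted p = 0.45 in limma) and Tmem45b, a paralog of Tmem45a, by -0.27 (SE 0.090, adjusted p = 0.194 in limma). Both were named after their values were seen.

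Without BSS day 30 replicate 2, 1 gene passed in each of 2 lists, Phkb, a subunit of the kinase that activates glycogen breakdown (-0.25, adjusted p = 0.0497 in limma), and Lbp (-0.36, adjusted p = 0.0431), when 808 of all 18194 genes (4.44%) passed instead of 78. Without any of the other 17 arrays the 5 lists gave 0 genes. In contrast, of 17 genes of the core clock and its output, a list partly taken from what these arrays had shown, 4 were higher and 8 lower at day 30, among them Arntl (1.03), Npas2 (0.89), Nfil3 (0.81) and Ciart (-0.68). Of 14 glucocorticoid response genes 2 passed as lower (0.324% of all genes), Tsc22d3 (-0.47, adjusted p = 0.0119 in limma) and Per1 (-0.65, adjusted p = 0.011). Of these, Per1 also belongs to the clock.

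The means of tissue markers also differed between the days, although 0 genes passed in any of the 10 marker lists in limma. At an unadjusted p under 0.05 in limma the lists gave 0 to 5 genes, where 15.3% of all genes did. The most were in the lens list (5 of 11) and the fibroblast list (5 of 12). Of all 18194 genes 7770 were higher and 10424 lower at day 30. The genes of a list were read on the same arrays and are not independent. Rod markers were higher at day 30 for 12 of 12 genes (median 1.47), lens markers for 11 of 11 (median 0.76) and surface epithelium markers for 11 of 12 (median 0.26). The rod score overlapped widely between the days, from -1.61 to 2.23 at day 7 and from -1.59 to 3.68 at day 30. Fibroblast and stroma markers were lower for 9 of 12 genes (median -0.19), endothelial markers for 8 of 8 (-0.15), adipocyte markers for 5 of 5 (-0.40), RPE markers for 12 of 12 (-0.08), smooth muscle markers for 6 of 8 (-0.06) and macrophage markers for 6 of 8 (-0.14), and skeletal muscle markers were higher for 7 of 12 (0.03). The fibroblast score did not overlap between the days after BSS (0.04 to 0.47 at day 7, -0.47 to -0.09 at day 30) or after Dex (0.20 to 0.36 and -0.12 to 0.12). After TAA it ran from -0.57 to 0.03 at day 7 and from -0.06 to -0.01 at day 30. The array with the lowest fibroblast score at day 30, BSS day 30 replicate 1, also held the lowest values of Inmt (-1.31) and of Bpifb1 (-1.32). The same array had the lowest endothelial (-0.69) and smooth muscle (-0.62) scores and the highest rod score (3.68). The lowest fibroblast score of all was on TAA day 7 replicate 1 (-0.57), where Inmt measured 0.33 and Bpifb1 -0.12. The part of these scores in the values was not tested.

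With each of the 10 marker scores in turn as a covariate, all 7 genes kept the direction of their day difference. The genes were chosen by this difference, so that a kept direction is no independent result. The part of other tissue in the difference was not tested. Wee1 ran from -0.66 to -0.58, Inmt from -1.11 to -0.96, Fibin from -0.90 to -0.78 and Tmem45a from 0.66 to 0.80. The largest moves came with the fibroblast score, with which Bpifb1 went from -1.24 to -0.93 and Ppp1r3c from 0.995 to 0.74, and with the lens score, with which Avpr1a went from 0.76 to 0.59. With the rod score the 7 differences were between -1.20 (Bpifb1) and 0.93 (Ppp1r3c).

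**Figure D4:**
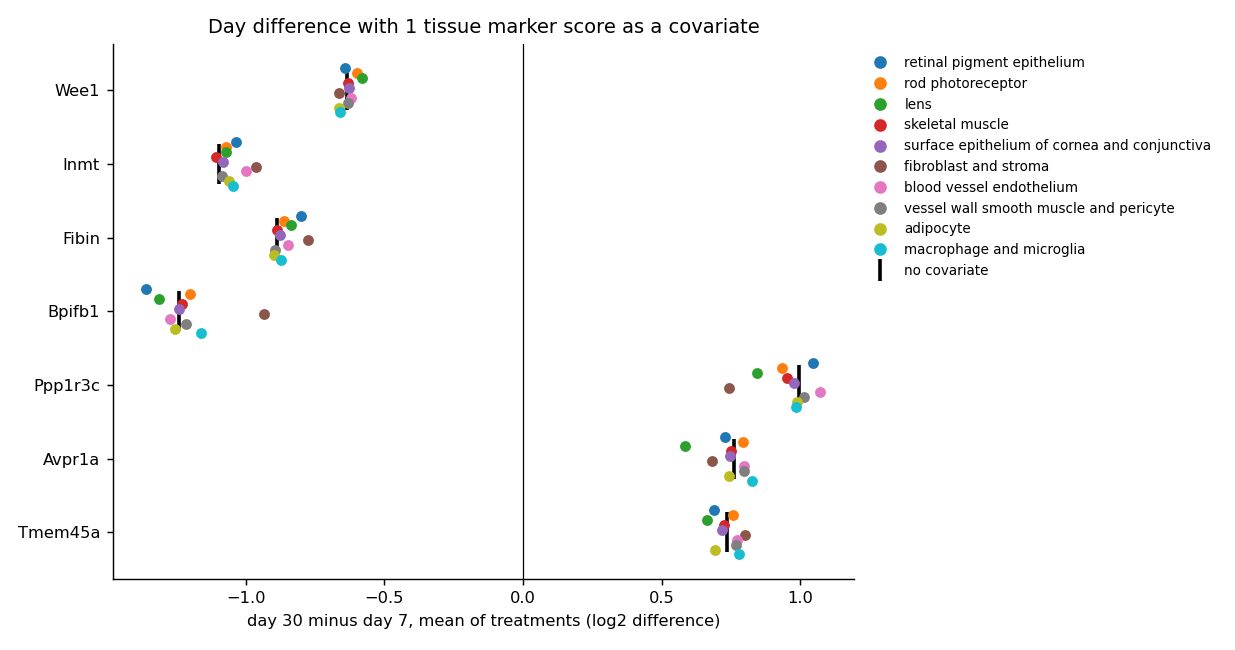
Mean day difference of each gene (x axis, log2) with 1 tissue marker score as a covariate; colored points stand for the 10 marker lists and the black bar for the value without a covariate. All points of a gene stay on one side of 0, and the fibroblast point moves furthest for Bpifb1, from -1.24 to -0.93. The genes were chosen by this day difference, and the part of other tissue in it was not tested.

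Within a day the 7 genes could be set against the clock genes without the day difference entering, but treatment differences still entered. Over the 9 arrays of a day, each gene was correlated with the leading probe sets of Arntl and of Dbp, which made 28 relations. None had a Benjamini-Hochberg adjusted p under 0.05 by Pearson's r or Spearman's rho (exact permutation tests, two-sided). The arrays of all treatments were pooled and permuted together, so these tests cannot separate a relation between genes from shared treatment differences. Arntl, for example, differed between TAA and BSS by 0.75 at day 7 (95% interval 0.22 to 1.27) and by -0.07 at day 30 (-0.60 to 0.46). The lowest p was that of Wee1 with Arntl at day 30 (r = -0.73, exact permutation p = 0.0279, adjusted p = 0.401; rho = -0.75, p = 0.0255, adjusted p = 0.404), and r was -0.46 without the 2 arrays farthest from the median of Arntl. Bpifb1 and Dbp at day 30 gave r = -0.72 (exact permutation p = 0.0287, adjusted p = 0.401) and rho = -0.70 (p = 0.0433, adjusted p = 0.404), with r = -0.39 without the 2 farthest arrays. Fibin and Dbp gave r = 0.68 at day 7 (exact permutation p = 0.0502, adjusted p = 0.426) and -0.63 at day 30 (p = 0.0636, adjusted p = 0.426), that is, opposite signs on the 2 days. Bpifb1 and Arntl at day 7 changed from r = -0.48 on 9 arrays to 0.90 without the 2 farthest (exact permutation p = 0.00893, adjusted p = 0.25), so that the sign of this relation rested on those 2 arrays.

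**Figure D5:**
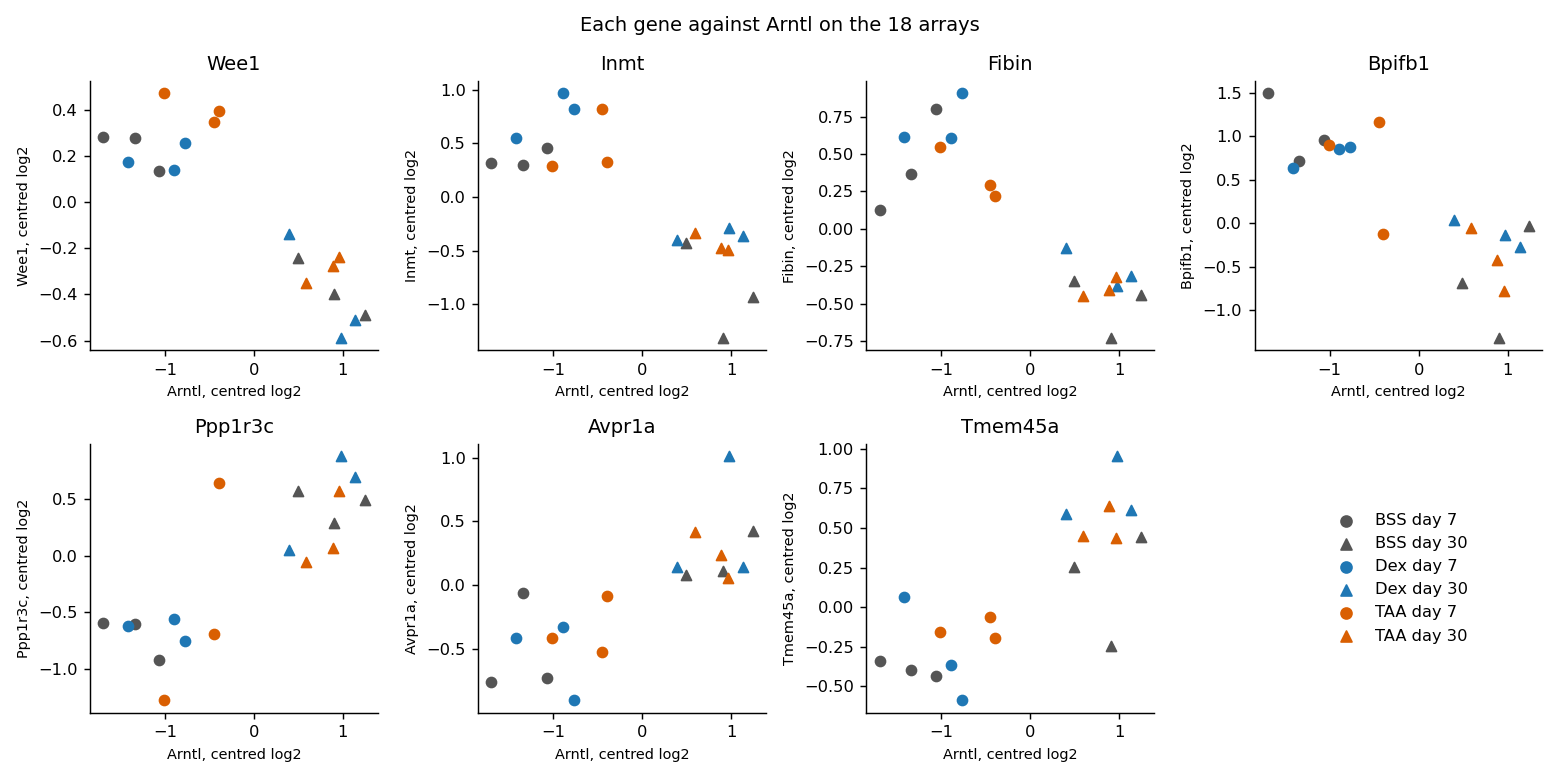
Each of the 7 genes (y axes, centred log2) against Arntl (x axes, centred log2) on the 18 arrays; circles are day 7, triangles day 30 and colors the treatments. The 2 days form separate clusters in each panel, and within a day no relation passed the adjusted threshold.

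The genes nearest in pattern over the 18 arrays, by Pearson's r with the leading probe set, are a description, since every gene found this way shares the day difference with the member. Fibin lay nearest to the clock repressor Nr1d1 (0.89), followed by Smpdl3b (0.88) and Hivep2 (0.87), and Inmt to Lefty1 (0.95), Smpdl3b (0.91) and Cys1 (0.90). Wee1 lay nearest to Fam76a (0.91), Pik3ip1 (0.89) and Eya1 (0.89), and Bpifb1 to the protease gene Ctsk (0.89), Ifit2 (0.87) and Lamc1 (0.86). Proser2 was among the 3 nearest of all 3 genes that were higher at day 30: for Ppp1r3c it stood with Ppil6 and Npas2 (0.86, 0.83 and 0.82), for Avpr1a with Cars2 and Hsph1 (0.88, 0.88 and 0.84), and for Tmem45a with Tgfb3 and Efnb1 (0.87, 0.88 and 0.87).

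With the mean of each group subtracted, which takes out day and treatment, other genes came nearest. They were Fkbp5, H3f3b and Dpep1 for Ppp1r3c (0.91, 0.86 and 0.86), Exosc10, Bms1 and Hsph1 for Avpr1a (0.92, 0.87 and 0.85), and Rap2b, Etv3 and Abhd17c for Tmem45a (0.90 each). For Inmt they were Cercam, Rsph4a and Col5a1 (0.86, 0.82 and 0.82), for Fibin Ccdc141, Topors and Zfp991 (0.90, 0.89 and 0.88), for Bpifb1 Adam22, P2ry12 and Ctsh (0.87, 0.87 and 0.85), and for Wee1 Sh3bgr, Rpa1 and Nkx2-3 (0.95, 0.92 and 0.92). Hsph1, a heat shock protein gene, was the 1 gene on both lists of the same member. Fkbp5 is a gene that glucocorticoids induce. The residual spread of Ppp1r3c is widest in TAA at day 7 (SD 0.99), so that this group weighs most in its correlations. On TAA day 7 replicate 1 the mean of the Fkbp5 probe sets was 0.96, against 0.04 and 0.21 on replicates 2 and 3. Ppp1r3c measured 0.64 there, against -1.28 and -0.69. Fkbp5 was picked as the highest r of many probe sets, and a link between these genes was not tested.

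Among the 7 genes, correlations were strong over all arrays and weaker once the groups were taken out. Over the 18 arrays the closest pair was Inmt and Fibin (r = 0.91), and the pairs of a gene that was lower with one that was higher ran from -0.81 to -0.55. With group means subtracted r was 0.29 for Inmt and Fibin, and the values furthest from 0 were -0.53 for Ppp1r3c and Bpifb1, 0.46 for Avpr1a and Tmem45a, -0.46 for Wee1 and Avpr1a, and 0.45 for Inmt and Bpifb1. The first set rests on the day difference that chose the genes, and none was tested.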

How the data were processed

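RPE/choroid RNA of 18 mice was hybridized to Affymetrix Mouse Genome 430 2.0 arrays. The authors deposited log2 values for 45101 probe sets, made with RMA and baselined to the median of all samples in GeneSpring 12.5, and no probe set had a median over 5e-07 in size. The 3 samples of each 4 with the best RNA quality were hybridized, and sources differ on the labelling kit. Probe sets were named through the platform annotation (34958 with 1 symbol, 932 with several, 9211 with none).

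The 6 group means were fitted with limma 3.58.1 (R 4.3.3; 12 residual degrees of freedom, prior 3.29), with Benjamini-Hochberg adjustment over all probe sets and an adjusted p under 0.05 as the call; the fit was tested on simulated data. The leading probe set of a gene had the smallest p for the mean day difference. Correlations, counts and plots were made with Python 3.11.15, numpy 2.4.6, scipy 1.17.1, pandas 2.3.3 and matplotlib 3.10.9. The methods' t-test was run at the study's thresholds, p at most 0.05 and fold at least 1.5. Named genes are the members, the 3 nearest in pattern by each measure, and, from each list, the 4 with the largest difference among those that passed or else the first 3. From the mitotic entry list Wee2 (-0.05) completes these 3. The members and lists were chosen with earlier results of these data known. Alternatives were other scalings, array weights, a robust prior, gene means, 1-gene probe sets, a rod covariate, the replicate number as a block and leaving out each array. The number of arrays limits the precision.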

Additional observations from a re-analysis of the deposited data

How the results depend on the processing

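The 7 genes were chosen by their day difference on these same arrays, so that a kept sign is no independent result. All 182 day differences under the alternatives kept their sign. With gene means in place of the leading probe set that of Wee1 was -0.50 and that of Ppp1r3c 0.49, and leaving out 1 array gave 0.86 to 1.18 for Ppp1r3c and -1.37 to -1.13 for Bpifb1. The number of genes whose days did not overlap ran from 6 to 7 after BSS and stayed at 7 after Dex. After TAA it was 5 to 7 with 1 array left out and 5 under the other alternatives. Over all treatments it was 4 to 6 with 1 array left out and 3 to 4 under the others. With an array left out, fewer arrays are compared, and non-overlap is easier to reach for any probe set. No share of all probe sets was set beside these counts, so that they cannot tell the 7 genes from other probe sets. No treatment call on the 7 genes arose under any alternative. Without BSS day 30 replicate 2, 41 of all probe sets passed in Dex against BSS and 3 in TAA against BSS at day 30, where 0 had. For the lists, array weights and leaving out arrays were added after seeing the data, as were the marker covariates other than rod. With array weights the passing relatives were 1 lower in mitotic entry, 2 higher and 2 lower in glycogen metabolism, 1 lower in methyl transfer, 1 lower among relatives of Bpifb1 and Tmem45a, and 1 higher in the glucocorticoid list, when 1543 of all genes passed instead of 78. Leaving out 1 array gave 0 to 1 lower in glycogen metabolism and among the relatives of Bpifb1 and Tmem45a. The count of all probe sets that differed between the days was 180, 107 with quantile normalization, 73 with the rod covariate, 2409 with array weights and 63 (without TAA day 7 replicate 2) to 1255 (without BSS day 30 replicate 2) with 1 array left out.

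With the replicate number as a block, 98 probe sets differed between the days and 0 of the 7 genes in each treatment comparison. The numbers mark different animals, 13 of 45 same-numbered pairs of arrays deviated together at r over 0.1 (median -0.05), and 3 of 18 arrays were closest to an array of their own number, so that the samples share only a number.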
